A study of Homo sapiens with 6 samples.

Results

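The CYP4 genes of chromosome 1p33 were examined in T47D cells, an established human breast cancer line of luminal A type, after knockdown of ELF5, a transcription factor of the ETS family that acts in luminal cells of the breast. The 5 genes are CYP4Z1, CYP4Z2P, CYP4X1, CYP4B1 and CYP4A11, taken by their symbols from a table of 26364 genes. They were selected with the difference between the siRNA groups already known, so their values in that comparison are a description and carry no p-value. Bulk RNA was sequenced from 6 libraries, 3 from cells given a control siRNA (siNC) and 3 from cells given an siRNA against ELF5 (siELF5), all collected 48 h after transfection. Each group received 1 siRNA product, the products carry different catalogue numbers, and the labels do not say that replicates were grown separately. Errors and p-values therefore measure only how far these libraries differ, which may be technical variation.

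CYP4 enzymes are cytochromes P450 that add a hydroxyl group to the far (omega) end of fatty acids, a step that opens a route to dicarboxylic acids and, from arachidonic acid, to signalling lipids. CYP4Z1 is known for its expression in mammary tissue and breast tumours, and glucocorticoids and progestins have been reported to induce it in T47D cells. CYP4Z2P is a transcribed pseudogene that resembles it closely, CYP4X1 is an enzyme with few known substrates that can oxidise the endocannabinoid anandamide, CYP4B1 is a mainly extrahepatic enzyme, and CYP4A11 is a fatty acid hydroxylase of liver and kidney.

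CYP4Z1 and CYP4Z2P are near copies, which bears on every count below. Between the GENCODE 29 transcripts CYP4Z1-201 and CYP4Z2P-202, 1325 of 1355 aligned bases were identical (97.8%), with 30 single-base differences and no gap. The differences lay in the CYP4Z1 coding part, and the longest stretch without one ran for 367 bases, from base 476 to base 842 of the CYP4Z1 transcript. The alignment covered bases 1 to 1355 of the 1906 bases of CYP4Z1-201, so the end of that transcript lay outside it. Within the aligned part, the 60-base windows with the most differences held 5. The first of these windows, bases 155 to 214, is printed with the differing bases in capitals.
CYP4Z1: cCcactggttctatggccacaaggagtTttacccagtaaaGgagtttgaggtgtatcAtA
CYP4Z2P: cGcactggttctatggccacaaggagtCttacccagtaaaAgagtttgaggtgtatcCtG
Read in the CYP4Z1 frame, CYP4Z1 came to its first stop at codon 506 and CYP4Z2P at codon 341, so the open reading frame ends earlier in the pseudogene transcript.

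**Figure D1:**
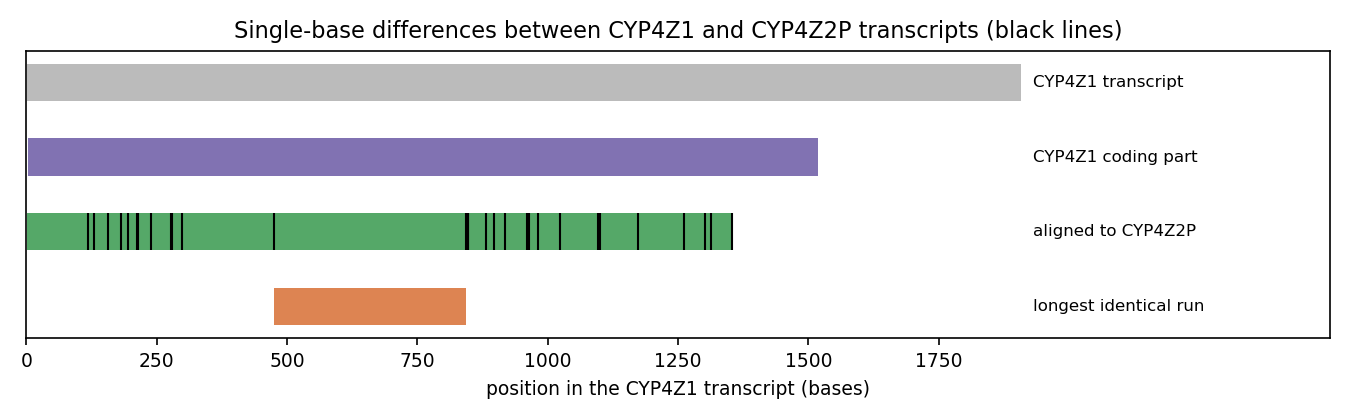
The CYP4Z1 transcript in bases (grey), its coding part (purple), the part aligned to CYP4Z2P (green) with the 30 single-base differences as black lines, and the longest identical run (orange). The differences sit on both sides of a run of 367 bases that holds none.

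The identical stretches set how far reads can be told apart. Of all 50-base words of the CYP4Z1 transcript 32.0% were also found in another gene, and that gene was CYP4Z2P in each case; at 100 bases the share was 20.1%. For CYP4Z2P the shares were 40.5% at 50 bases and 25.5% at 100 bases. CYP4A11 shared 38.6% of its 50-base words, all of them with CYP4A22, to which it was 97.3% identical over 2529 aligned bases. At 50 bases 2 genes held such words, CYP4A22 and 1 other. CYP4X1 and CYP4B1 shared no word of 50 bases or longer with any other gene, and CYP4X1 was 68.7% identical to CYP4Z1 over their alignable part. Neither the read length nor the treatment of reads that match more than 1 gene is stated in the sources used here. The split of reads between CYP4Z1 and CYP4Z2P, and between CYP4A11 and CYP4A22, is therefore uncertain, while CYP4X1 and CYP4B1 share no stretch of these lengths.

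The libraries held 66.8 M to 83.7 M reads assigned to genes. ELF5 itself stood at a normalised read count (reads divided by a size factor per library) of 13224.9, 13148.5 and 12910.2 in siNC replicates 1 to 3 and of 3677.7, 3724.9 and 3637.6 in siELF5 replicates 1 to 3, so the target matched the label of all 6 libraries, at 28.1% of the siNC mean. All 10 luminal markers had a mean of at least 10, with summed counts of 765104 to 815465 in siNC and 722302 to 753626 in siELF5. The lower sum came from the keratins KRT8 (mean 250610 in siNC and 188742 in siELF5) and KRT18 (119969 and 87936.5), while the means of ESR1, PGR, GATA3, FOXA1, XBP1 and SPDEF were higher in siELF5. Of the 6 basal and myoepithelial markers, 4 had a mean of at least 10. Together the 6 summed to 834.8 to 901.8 in siNC and 1217 to 1300.2 in siELF5. Most of the gap was ACTA2 (mean 356.1 in siNC and 739.3 in siELF5). TP63 was also higher in siELF5 (162.0 and 202.3), while MYH11 (213.0 and 201.3) and OXTR (116.6 and 99.4) were lower. KRT5 and KRT14 stood near 10 in both groups. The 6 fibroblast markers summed to 4227 to 5409 in siNC and 3378 to 3888 in siELF5, almost all of it COL1A1. The 5 leukocyte markers summed to 237.9 to 243.9 and 293.4 to 348.2, with PTPRC at 1.63 and 0, and the 4 endothelial markers to 30.4 to 39.7 and 12.3 to 14.5, mainly VWF (29.6 and 12.9), with PECAM1 at 0.67 and 0.65. None of the 4 hepatocyte markers reached a mean of 10. The part of these markers in the results was not tested. A score of how far GC-rich genes deviate ran from -0.39 to -0.07 in siNC libraries and from 0.22 to 0.27 in siELF5 libraries, so it moved with the groups, and values with this score as a covariate are given beside the results.

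Of the 5 CYP4 genes, 4 had a mean of at least 10 and entered the fit over 16032 genes. CYP4Z1 and CYP4Z2P were lower in every siELF5 library than in any siNC library, as were 28.0% of all genes fitted; CYP4X1 was higher in every siELF5 library, as were 27.9% of all genes; CYP4B1 overlapped between the groups. Both shares are given as background only, since the genes were chosen on this comparison. In bulk RNA, fewer cells that express a gene and less RNA per cell cannot be told apart.

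CYP4Z1, the mammary hydroxylase, had normalised read counts of 210.4, 205.7 and 164.0 in siNC replicates 1 to 3 and of 40.8, 81.4 and 51.4 in siELF5 replicates 1 to 3. The groups did not overlap, and siELF5 replicate 2 was the highest of the knockdown libraries. The siNC mean was 193.3 ± 25.6 (SD, n = 3) and the siELF5 mean 57.8 ± 21.1 (SD, n = 3), 3.34-fold lower. On the log2(value + 1) scale used for all fold changes below, the difference was -1.77 (SE 0.23), the 40th lowest of 16032. Each siNC library rested on 162 to 223 reads of CYP4Z1 and each siELF5 library on 45 to 83.

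CYP4Z2P, the pseudogene, stood at 861.3, 889.0 and 799.5 in siNC replicates 1 to 3 and at 152.1, 138.4 and 161.2 in siELF5 replicates 1 to 3. No siELF5 library came near a siNC library, and the 3 knockdown values lay closer to each other than those of CYP4Z1 did in proportion to their mean. The siNC mean was 850.0 ± 45.8 (SD, n = 3) and the siELF5 mean 150.6 ± 11.5 (SD, n = 3), 5.64-fold lower, a log2 difference of -2.49 (SE 0.10). This was the 12th lowest of the 16032 fitted genes.

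CYP4X1, which lies between CYP4A11 and CYP4Z1 on the chromosome, differed the other way. Its normalised read counts were 956.7, 976.7 and 954.4 in siNC replicates 1 to 3 and 1392.8, 1312.9 and 1419.3 in siELF5 replicates 1 to 3. The siNC values were close together and all siELF5 values lay above them. The siNC mean was 962.6 ± 12.2 (SD, n = 3) and the siELF5 mean 1375 ± 55.4 (SD, n = 3), 1.43-fold higher, a log2 difference of 0.51 (SE 0.06), in rank 1806 from the top.

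CYP4B1, the first gene of the cluster in chromosomal order, was low and variable. It had 24.1, 56.3 and 35.4 in siNC replicates 1 to 3 and 28.98, 13.7 and 23.6 in siELF5 replicates 1 to 3, from 14 to 61 reads per library. The groups overlapped, since siELF5 replicate 1 lay above siNC replicate 1. The siNC mean was 38.6 ± 16.3 (SD, n = 3) and the siELF5 mean 22.1 ± 7.73 (SD, n = 3), with a log2 difference of -0.76 (SE 0.38). Without siNC replicate 2 the log2 difference was -0.45, and without siNC replicate 1 it was -1.04.

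CYP4A11, the liver and kidney hydroxylase, was close to undetected. It had 2, 0 and 2 reads in siNC replicates 1 to 3 and 2, 4 and 6 reads in siELF5 replicates 1 to 3, and did not enter the fit. Every siNC library was below the 3 reads taken as the floor here, and no fold change is given. Its near copy CYP4A22 had 6, 4 and 6 reads in siNC replicates 1 to 3 and 1, 1 and 7 in siELF5 replicates 1 to 3, above the floor in every siNC library.

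**Figure D2:**
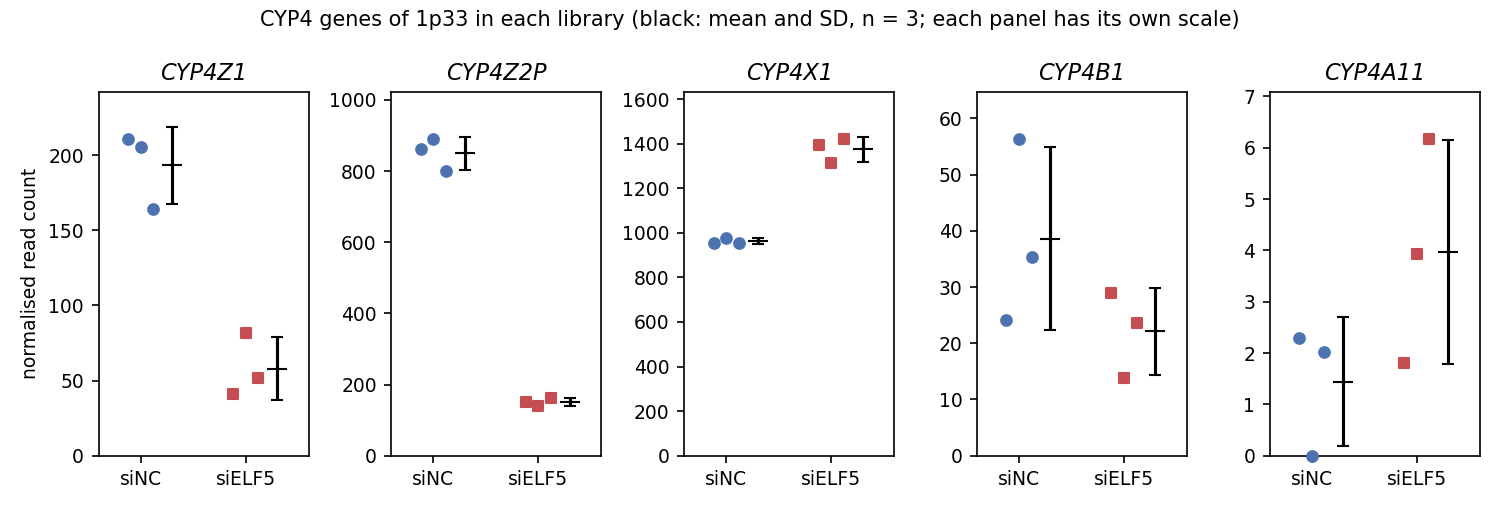
Normalised read count of each CYP4 gene in every library, with siNC as circles, siELF5 as squares, and the mean with SD (n = 3) in black; each panel has its own axis from 0. CYP4Z1 and CYP4Z2P sit lower in siELF5, CYP4X1 sits higher, and CYP4B1 and CYP4A11 overlap.

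The authors' deposited table gives log2 fold changes of -1.74 for CYP4Z1, -2.50 for CYP4Z2P, 0.51 for CYP4X1 and -0.81 for CYP4B1. With a correction for GC content in each library, the log2 difference was -1.72 for CYP4Z1, -2.44 for CYP4Z2P, 0.53 for CYP4X1 and -0.76 for CYP4B1. With the GC score as a covariate it was -1.54 (SE 0.58), -2.29 (SE 0.27), 0.55 (SE 0.16) and -1.30 (SE 0.98), in the same order. The transcripts of the CYP4Z copies had a GC content of 44.0% and 44.2%, that of CYP4X1 47.3% and that of CYP4B1 52.3%.

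Divided by the length of the longest transcript (1512 bases for CYP4Z2P), the levels of the genes were set side by side. For CYP4Z1, CYP4Z2P and CYP4A11 these levels are uncertain. Reads they share with a near copy may have been dropped or assigned to either copy. In siNC the order was CYP4Z2P at 562.1 ± 30.3 normalised reads per kilobase (SD, n = 3), CYP4X1 at 408.4 ± 5.19, CYP4Z1 at 101.4 ± 13.4, CYP4B1 at 17.8 ± 7.50 and CYP4A11 at 0.57 ± 0.50. In siELF5 CYP4X1 came first at 583.4 ± 23.5, followed by CYP4Z2P at 99.6 ± 7.62, CYP4Z1 at 30.4 ± 11.1, CYP4B1 at 10.2 ± 3.56 and CYP4A11 at 1.57 ± 0.86. Neighbours in either order did not overlap between libraries. By these values the pseudogene and the orphan enzyme changed places at the top, and the coding gene of the CYP4Z copies came next below them in both. Among 20178 genes with a read and a known length, CYP4Z2P in siNC stood above 65.3%, CYP4X1 above 60.1%, CYP4Z1 above 44.1%, CYP4B1 above 31.2% and CYP4A11 above 10.1%.

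The sum of both CYP4Z copies does not depend on how shared reads were split between them, although any shared reads that were dropped in counting are missing from it. The summed normalised read count was 1071.7, 1094.7 and 963.5 in siNC replicates 1 to 3 and 192.9, 219.8 and 212.6 in siELF5 replicates 1 to 3. The siNC mean was 1043 ± 70.1 (SD, n = 3) and the siELF5 mean 208.4 ± 13.9 (SD, n = 3), which is 19.98% of siNC. The sum varied less between knockdown libraries than CYP4Z1 alone did.

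CYP4Z2P supplied most reads of the pair in every library. Its share in siNC replicates 1 to 3 was 80.4% (exact Clopper-Pearson 95% interval 77.7% to 82.9%), 81.2% (78.9% to 83.4%) and 83.0% (80.4% to 85.3%). In siELF5 replicates 1 to 3 the share was 78.9% (72.8% to 84.2%), 62.9% (56.3% to 69.3%) and 75.8% (69.4% to 81.5%). The intervals cover counting error only and take each read as independent, although reads without molecular identifiers are not independent molecules. Read counts of low genes were often even, as for CYP4A11 (2, 0 and 2 in siNC, 2, 4 and 6 in siELF5). Not all were, as CYP4A22 had 1, 1 and 7 in siELF5. If both reads of a pair were counted, the intervals are too narrow, which was not tested. siELF5 replicate 2 had the lowest share. The siNC mean was 81.5% ± 1.34 (SD, n = 3) and the siELF5 mean 72.6% ± 8.46 (SD, n = 3), or 77.4% without that library. Without it the log2 difference of CYP4Z1 was -2.05.

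**Figure D3:**
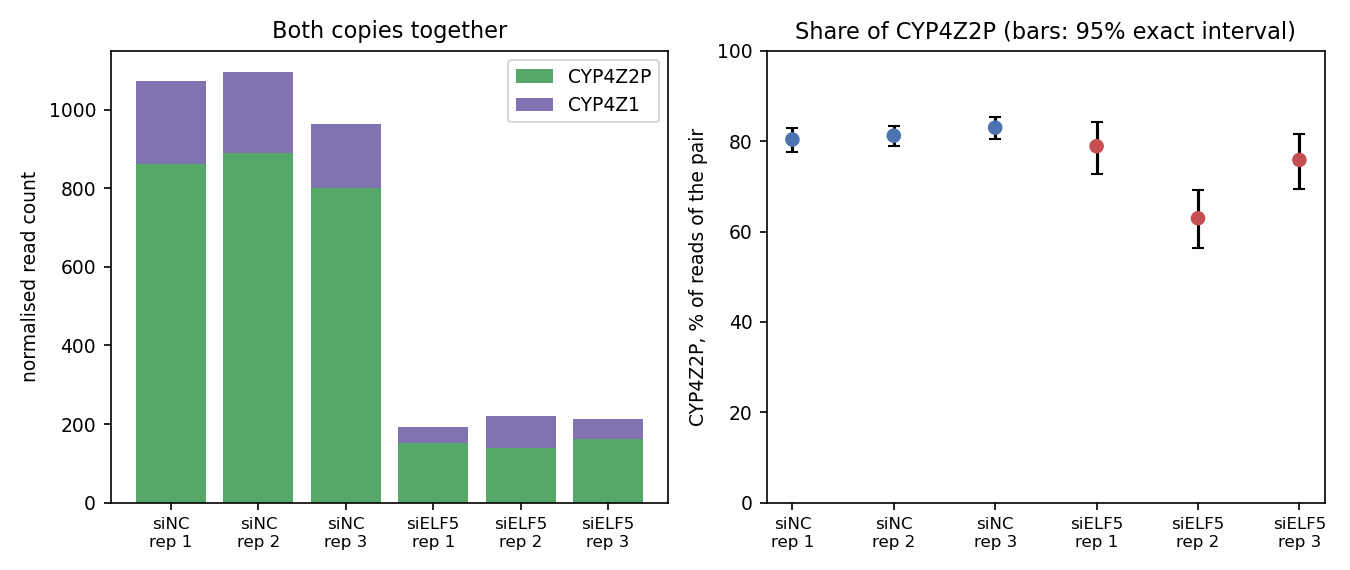
Left, normalised read counts of CYP4Z2P (green) and CYP4Z1 (purple) stacked for each library. Right, CYP4Z2P as a percent of the reads of both, with exact 95% intervals; the siNC libraries lie between 80.4% and 83.0%, and siELF5 replicate 2 is lowest at 62.9%.

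The promoters of the coding genes are shown because CYP4Z1 and CYP4X1, near each other on the chromosome, differed in opposite directions. ETS factors such as ELF5 recognise a GGAA core. RefSeq gives 300-base promoters (bases before and just after a transcript's start) on GRCh38.p14 for CYP4Z1 and CYP4B1, and for 2 starts of CYP4X1; those of CYP4Z1 at chr1:47066981-47067280 and of CYP4X1 at chr1:47023419-47023718, both on the plus strand, are printed with GGAA, on either strand, in capitals.
CYP4Z1: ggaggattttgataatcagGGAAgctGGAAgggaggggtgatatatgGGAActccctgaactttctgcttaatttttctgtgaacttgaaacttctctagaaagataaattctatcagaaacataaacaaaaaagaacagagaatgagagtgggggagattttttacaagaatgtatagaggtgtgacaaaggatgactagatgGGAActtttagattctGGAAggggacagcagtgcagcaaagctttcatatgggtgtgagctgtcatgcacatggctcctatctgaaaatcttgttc
CYP4X1: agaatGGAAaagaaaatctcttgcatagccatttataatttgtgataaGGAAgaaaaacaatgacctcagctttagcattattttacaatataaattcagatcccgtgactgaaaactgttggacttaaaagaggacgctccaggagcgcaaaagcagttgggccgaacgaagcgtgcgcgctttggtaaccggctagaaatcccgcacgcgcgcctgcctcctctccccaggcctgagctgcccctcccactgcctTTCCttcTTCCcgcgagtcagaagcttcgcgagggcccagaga
The CYP4Z1 promoter held 5 GGAA matches, and this CYP4X1 promoter held 4. The other CYP4X1 promoter, at chr1:46961114-46961413, and the CYP4B1 promoter, at chr1:46798796-46799095, held 3 each. A GGAA match was present in 95.5% of 35116 promoters of this length, with a median of 3, so its presence is common. The longer form AGGAAG, which contains GGAA, matched once, in the printed CYP4X1 promoter, against 33.6% of all promoters with a match; CGGAAG, which also contains GGAA, matched none of the 4 promoters, against 19.5% of all. None held the glucocorticoid and progesterone receptor element, found in 0.39% of promoters, or the direct repeat bound by PPAR and RXR, found in 0.023%. A match is a description of letters and not a bound site.

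The genes on both sides of the cluster served to place these differences along the chromosome. Of the 10 genes before it and the 10 after it, of which CYP4A22 is the first, 14 had a mean of at least 10 and were tested with limma over all 16032 genes, of which 47.1% passed an adjusted p of 0.05, 23.8% higher and 23.3% lower in siELF5. That balance depends on the scaling: with equal library totals 4382 genes were called higher and 3131 lower, and with the GC correction 3231 higher and 4504 lower. Among the neighbours 2 rose, 1 fell and 11 did not pass (21.4% called), with a median log2 difference of 0.06 against 0.00 over all genes; with the GC correction 5 passed in place of 3. DMBX1, a homeobox gene, rose by 0.38 (SE 0.09, limma adjusted p = 0.00281), or 0.24 with the GC correction. MOB3C, of the MOB kinase-activator family, rose by 0.27 (limma adjusted p = 0.0302), and missed the threshold with a replicate block (limma adjusted p = 0.0555) and without siNC replicate 3 (0.110) or siELF5 replicate 2 (0.0785) or 3 (0.0982).

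EFCAB14, the gene directly before CYP4B1, fell by 0.16 on the log2 scale (SE 0.04, limma adjusted p = 0.00314), from 10743.5 ± 393 (SD, n = 3) to 9632 ± 230 (SD, n = 3). MKNK1, a kinase that phosphorylates a translation initiation factor, had a log2 difference of 0.08, and ATPAF1, an assembly factor of mitochondrial ATP synthase, one of 0.02. After the cluster STIL, a centriole duplication gene, had 0.05, which passed with the GC correction at 0.09 (limma adjusted p = 0.0365), and CMPK1, a pyrimidine nucleotide kinase, had -0.06. The forkhead gene FOXD2 had 0.24 (limma adjusted p = 0.0725), and with the GC correction it passed in the other direction, at -0.31 (limma adjusted p = 0.0144). LINC00853, the closest tested gene after CYP4Z1, had -0.43 with an SE of 0.38, and EFCAB14-AS1 had 0.55 with an SE of 0.40. MKNK1-AS1 (0.00), FOXD2-AS1 (0.00), LINC01389 (0.18) and FOXE3 (0.35) did not pass either, and each changed sign under at least 1 alternative. The library kit does not mark strand, so reads of an antisense gene and its partner cannot be told apart.

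LINC01398, KNCN, TEX38, PDZK1IP1 and TAL1 were under the minimum mean; KNCN and TAL1 had no read in any library, and PDZK1IP1 had at most 8. The tested neighbour with the value farthest below 0 was LINC00853, at -0.43, while CYP4Z2P stood at -2.49 and CYP4Z1 at -1.77. CYP4X1, at 0.51, lies between these lower genes in the chromosomal order CYP4B1, CYP4Z2P, CYP4A11, CYP4X1, CYP4Z1.

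**Figure D4:**
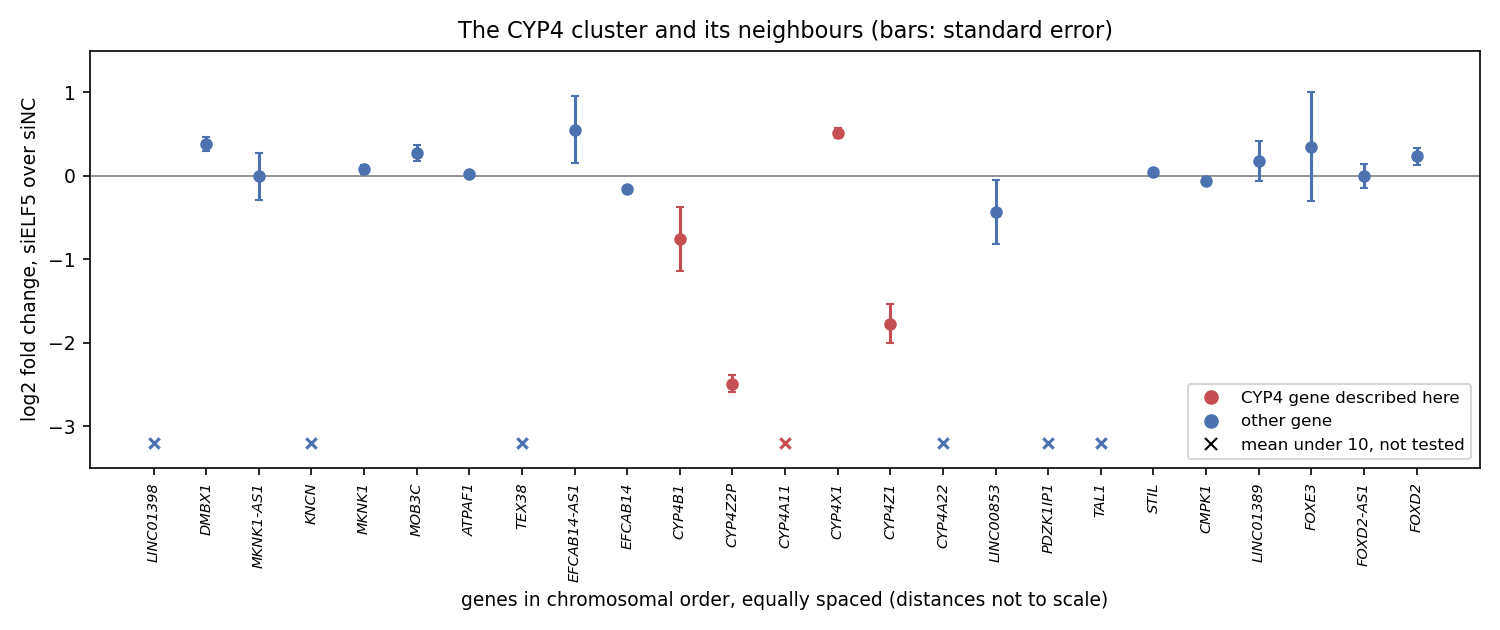
Log2 fold change (siELF5 over siNC) with standard error for the CYP4 genes (red) and their neighbours (blue) in chromosomal order, equally spaced; crosses mark genes with a mean under 10. CYP4Z2P and CYP4Z1 lie at -2.49 and -1.77, while the tested neighbours lie between -0.43 and 0.55.

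The other CYP4 genes include the CYP4F genes, which act on leukotrienes and very long fatty acids, and CYP4V2, both elsewhere in the genome. CYP4A22, next to the cluster and already among the neighbours, is also in this list. Of 12 listed, 5 were tested, 3 rose, none fell and 2 did not pass, with a median of 0.32 against 0.00 over all genes. Called were 60%, against 47.1% of all genes, in a list of few tested members. CYP4F22, an omega-hydroxylase of ultra-long fatty acids needed for the skin lipid barrier, had 39.1, 28.6 and 38.5 in siNC replicates 1 to 3 and 128.6, 146.2 and 140.7 in siELF5 replicates 1 to 3, without overlap. It rose by 1.95 on the log2 scale (SE 0.20, limma adjusted p = 7.48e-06). CYP4V2, a medium-chain fatty acid hydroxylase mutated in a retinal dystrophy, had 285.2, 323.7 and 297.6 in siNC replicates 1 to 3 and 712.7, 610.4 and 590.5 in siELF5 replicates 1 to 3. All siELF5 values lay above the siNC values, and the log2 difference was 1.07 (SE 0.10, limma adjusted p = 2.8e-06).

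The pseudogene CYP4F35P rose by 0.32 (SE 0.09, limma adjusted p = 0.0133), which missed the threshold without an intensity trend in the fit (limma adjusted p = 0.0665), and was 0.21 without siELF5 replicate 3; how much sequence it shares with other CYP4F genes was not measured, so its reads are uncertain. The other two tested, named because they complete the list, were CYP4F8, at -0.27 (limma adjusted p = 0.577), and the pseudogene CYP4F29P, at -0.26 (limma adjusted p = 0.234).

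Other cytochrome P450 genes were taken by symbols of the form CYP1B1, so those named otherwise are not counted. Of 44 such genes outside the CYP4 family, 19 were tested, 7 rose, 3 fell and 9 did not pass, with a median of 0.00. The share called, 52.6%, was near the 47.1% of all genes. The count of 10 that passed became 6 without siNC replicate 2 or without siELF5 replicate 2. CYP1B1, which hydroxylates oestradiol and arachidonic acid, rose from 8130 ± 184 (SD, n = 3) to 14356.5 ± 367 (SD, n = 3), a log2 difference of 0.82 (SE 0.03, limma adjusted p = 2.43e-09). CYP27B1, which activates vitamin D, rose by 0.77 (limma adjusted p = 0.00056), CYP26B1, which breaks down retinoic acid, by 1.00 (limma adjusted p = 0.00301) and CYP39A1, an oxysterol hydroxylase, by 0.60 (limma adjusted p = 0.00878). CYP39A1 missed the threshold without siELF5 replicate 2 (limma adjusted p = 0.0512).

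**Figure D5:**
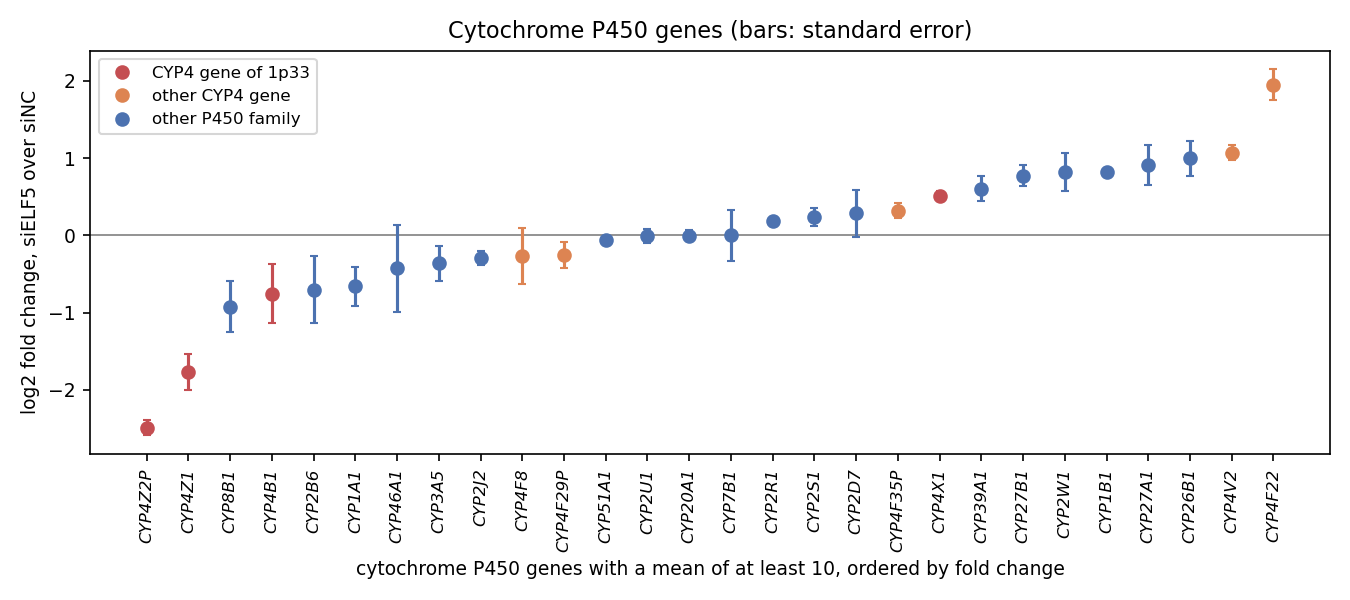
Log2 fold change (siELF5 over siNC) with standard error for the listed cytochrome P450 genes with a mean of at least 10, ordered by value. Red marks the CYP4 genes of 1p33, orange other CYP4 genes and blue other families. CYP4Z2P and CYP4Z1 are the lowest at -2.49 and -1.77, and CYP4F22 is the highest at 1.95.

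CYP4 enzymes need electrons from partner proteins, and their products are oxidised further by alcohol and aldehyde dehydrogenases. Of 19 such genes 12 were tested, 6 rose, 1 fell and 5 did not pass, with a median of 0.08. Called were 58.3%, against 47.1% of all genes. The 6 that rose include an electron donor that passed in the other direction with the GC correction, at -0.14 (limma adjusted p = 0.00568). The gene that fell was ALDH3B2, an aldehyde dehydrogenase of lipid droplets, from 5664 ± 249 (SD, n = 3) to 2531 ± 26.6 (SD, n = 3), a log2 difference of -1.16 (SE 0.04, limma adjusted p = 1.08e-09). Its relative ALDH3B1 rose from 972.8 ± 50.5 (SD, n = 3) to 1679 ± 28.2 (SD, n = 3), a log2 difference of 0.79 (limma adjusted p = 4.14e-07). The electron carrier CYB5B, the cytochrome b5 of the mitochondrial outer membrane, rose by 0.52 (limma adjusted p = 7.46e-08), and CYB5R3, a cytochrome b5 reductase, by 0.28 (limma adjusted p = 0.000289). With the GC correction CYB5R3 stood at 0.08, and it missed the threshold when the replicate block was added (limma adjusted p = 0.0625).

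Arachidonic acid is a shared substrate of CYP4 enzymes and of the eicosanoid pathway. Of 32 genes of that pathway 24 were tested, 9 rose, 5 fell and 10 did not pass, with a median of 0.09, so 58.3% were called against 47.1% of all genes; the 14 that passed became 7 without siELF5 replicate 1, 8 without siNC replicate 2 and 9 without an intensity trend. Besides CYP1B1, the prostaglandin E receptor PTGER3 rose by 0.28 (limma adjusted p = 2.37e-05) and the epoxide hydrolase EPHX1 by 0.22 (limma adjusted p = 0.000807). PTGES, a prostaglandin E synthase, fell by 0.32 on the log2 scale (limma adjusted p = 2.81e-05).

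Anandamide, which CYP4X1 can oxidise, is made and broken down by the endocannabinoid enzymes. All 11 listed were tested, 1 rose, 4 fell and 6 did not pass, with a median of -0.10. The share called, 45.5%, was near the 47.1% of all genes; with the GC correction 8 passed in place of 5. FAAH, the main anandamide hydrolase, fell from 819.9 ± 36.0 (SD, n = 3) to 595.5 ± 54.3 (SD, n = 3), a log2 difference of -0.46 (SE 0.08, limma adjusted p = 0.000539), or -0.80 with the GC correction. ABHD4, which acts in anandamide synthesis, fell by 0.28 (limma adjusted p = 0.00261), and ABHD12, a lysophospholipid and monoacylglycerol lipase, by 0.14 (limma adjusted p = 0.00718), or 0.33 with the GC correction. NAAA, a lysosomal acid amidase, rose by 0.31 (limma adjusted p = 7.98e-05).

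CYP4 genes are known targets of nuclear receptors. Of 22 receptors and coactivators 18 were tested, 6 rose, 4 fell and 8 did not pass, with a median of 0.06. Called were 55.6%, near the 47.1% of all genes. The oestrogen receptor gene ESR1 rose by 0.45 (limma adjusted p = 7.88e-08), PPARA, a fatty acid sensor that drives CYP4A genes in liver, by 0.63 (limma adjusted p = 4.53e-06), and the progesterone receptor gene PGR by 0.22 (limma adjusted p = 4.28e-05). NCOA3, a coactivator, fell by 0.24 (limma adjusted p = 3.12e-05).

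Of 26 PPAR target genes 24 were tested, 9 rose, 8 fell and 7 did not pass, with a median of -0.08. Called were 70.8%, against 47.1% of all genes. HADHB, of the trifunctional protein of fatty acid oxidation, rose by 0.24 (limma adjusted p = 3.59e-05), ACADVL, an acyl-CoA dehydrogenase, by 0.22 (limma adjusted p = 0.000131) and ACOT2, an acyl-CoA thioesterase with a near copy in ACOT1, by 0.25 (limma adjusted p = 0.000452). With the GC correction ACADVL missed the threshold, at 0.08 (limma adjusted p = 0.0867), and ACOT2 stood at 0.16.

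Of 20 genes known to respond to glucocorticoids or progestins 18 were tested, 6 rose, 5 fell and 7 did not pass, with a median of 0.16. Called were 61.1%, against 47.1% of all genes. ZBTB16, a zinc finger repressor strongly induced by these hormones in other settings, fell from 62.9 ± 5.43 (SD, n = 3) to 17.5 ± 2.64 (SD, n = 3), a log2 difference of -1.79 (SE 0.27, limma adjusted p = 0.000138). TSC22D3, the glucocorticoid-induced leucine zipper gene, fell by 0.52 (limma adjusted p = 2.73e-05). FKBP5, a co-chaperone of steroid receptors, rose by 0.20 (limma adjusted p = 0.000148), and TFCP2L1, a transcription factor, by 0.72 (limma adjusted p = 6.13e-05).

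With the GC score of the libraries as a covariate, 18 of the genes described above as rising or falling missed the threshold. Standard errors were wider with it, for example 0.43 in place of 0.16 for CYP39A1. The log2 difference with the covariate was larger than without it for MOB3C (0.51), CYP39A1 (0.88), CYP4F35P (0.36), PGR (0.24), ACADVL (0.28) and ABHD12 (-0.15). It was smaller for DMBX1 (0.36), HADHB (0.24), ACOT2 (0.24), NCOA3 (-0.16), ABHD4 (-0.17), FAAH (-0.25), TFCP2L1 (0.49), ZBTB16 (-1.40), CYP26B1 (0.36) and EPHX1 (0.06). For EFCAB14 (-0.0098) and CYB5R3 (0.0018) it was near 0. CYP4F22 (limma adjusted p = 0.0388) and CYP4V2 (limma adjusted p = 0.0230) still passed with that covariate.

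The genes whose pattern over the 6 libraries was most like that of CYP4Z1 were sought among 13805 genes with a mean of at least 50, by the root mean square difference of centred log2 values. As the difference between the groups dominates this measure, the list is a description. The closest was VGLL1, a coactivator of TEAD factors, at a difference of 0.22, with 92.0, 99.6 and 64.8 in siNC replicates 1 to 3 and 25.4, 37.3 and 28.8 in siELF5 replicates 1 to 3. Like CYP4Z1, it was lowest among siNC libraries in replicate 3 and highest among siELF5 libraries in replicate 2. CREB5, a transcription factor, followed at 0.26 (from 798.4 ± 24.8 to 282.0 ± 35.9, SD, n = 3), then ODAM, a secreted protein gene of enamel-forming tissue, at 0.27 (from 89.6 ± 7.82 to 31.7 ± 4.86), DISC1FP1 at 0.28 (from 153.2 ± 13.2 to 34.1 ± 14.8) and the transcription factor gene SOX2 at 0.30 (from 1104 ± 30.0 to 265.9 ± 27.6). The near copy CYP4Z2P came only in place 74, at 0.50, with its larger difference between the groups.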

How the data were processed

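The submitters' processing notes name the build hg19, STAR 2.6, Subread, featureCounts 1.6.3 and DESeq2 1.22.1, without order or settings; how reads were counted is not stated there. The deposited per-library values are signal values, gene counts divided by a size factor; every value was a whole multiple of its column's smallest (100% within 1e-06), so whole reads were recovered. The deposited log2 fold changes with their errors, the deposited test score and the deposited p-values are the authors' DESeq2 results, per the file headers, and entered no test.

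Of 26364 genes, 21390 had a read and 16032, with a mean of at least 10, were tested with limma 3.58.1 in R 4.3.3 (intensity trend, two-sided, log2(value + 1), Benjamini-Hochberg threshold 0.05), after a check on simulated data. This scale understates changes of low genes. edgeR 4.0.16 and DESeq2 1.42.0 on recovered reads were alternatives. Replicates differed by more than the sampling noise of reads taken as independent (chi-square per degree of freedom 4.37 to 12.0). If both reads of a pair were counted, these values are too high. GC content came from GENCODE 29 transcripts for 96.2% of tested genes, and the correction is a loess curve (span 0.3) per library. Coordinates and gene order come from GRCh38.p14, the counts from hg19. The CYP4 genes and all lists were chosen with earlier results of these data known. Named genes were the CYP4 genes, ELF5, all neighbours, up to 4 members of each list with the smallest adjusted p, and the 5 genes most like CYP4Z1. A gene that this rule takes is not reported here.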

Additional observations from a re-analysis of the deposited data

How the results depend on the processing

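CYP4Z1, CYP4Z2P, CYP4X1 and CYP4B1 kept their direction under each alternative run (other scaling, pseudocounts, filters, edgeR, DESeq2, GC correction, replicate block, and each library left out), with log2 differences of -2.05 to -1.54, -2.54 to -2.29, 0.49 to 0.55 and -1.30 to -0.45. The count of genes passing the test was 6164 to 7312 with a library left out. With the GC score of each library as a covariate, in which the siRNA groups do not overlap, 1175 genes passed in place of 7559, CYP4Z2P stood at -2.295, and 19 list genes passed in place of 77 (60 to 73 with a library left out). The log2 difference changed sign under that covariate for CMPK1 (0.042), EFCAB14-AS1 (-0.18), FOXD2 (-0.074), FOXE3 (-3.73) and MKNK1-AS1 (0.46); under the GC correction, with or without the block, for FOXD2 (-0.31), FOXE3 (-0.49) and MKNK1-AS1 (0.0051); under equal totals for FOXD2-AS1 (0.030) and MKNK1-AS1 (0.027); under TMM scaling for FOXD2-AS1 (0.0028); and for FOXE3 on recovered reads with edgeR (-0.089) and DESeq2 (-0.068). With a library left out, ranges crossed 0 for FOXD2-AS1 (-0.11 to 0.11), FOXE3 (-0.55 to 0.86), LINC01389 (-0.0015 to 0.40) and MKNK1-AS1 (-0.22 to 0.23). The cause of these changes was not tested.

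Same-numbered libraries did not deviate together (correlations 0.01, -0.03 and -0.06). With 3 libraries per group this cannot settle whether the numbers pair them. With a replicate block 7174 genes passed, and with the block and the GC correction 7581. Depth limits CYP4A11 and CYP4A22, with at most 7 reads in a library, and CYP4B1, with 14 to 61.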
